A study of Mus musculus with 36 samples.

Results

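The miRNAs described here are the mature products named miR-297, miR-466, miR-467 and miR-669, most of which come from hairpins packed into an intron of the mouse gene Sfmbt2. They were taken by name from a table of small RNA read counts, and a name was kept when it had 10 or more reads in 3 or more of the 36 libraries. Of 80 such names 55 were kept, among 775 miRNAs of all kinds that passed the same filter. By family, 6 of 6 miR-297 names, 25 of 31 miR-466 names, 8 of 13 miR-467 names and 16 of 30 miR-669 names were kept. Of the 25 names that were not, miR-669j had no read in any library, and the highest total belonged to miR-669h-5p with 141 reads, which reached 10 reads in 2 libraries. The highest count of a dropped name in a single library was 14 reads, for miR-669k-5p. The kept name with the fewest reads was miR-466i-3p with 188 reads, of which 20 fell in its highest library.

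The libraries came from whole kidneys of C57BL/6 mice of 2 lines that model autosomal dominant polycystic kidney disease. In one line both alleles of Pkd1 were floxed (Pkd1f/f) and in the other both alleles of Pkd2 (Pkd2f/f). Animals that also carried HoxB7-Cre, a transgene that drives Cre recombinase in the collecting duct, are called KO, and floxed animals without Cre are called WT. Kidneys were collected at postnatal day 1, 3 or 7 (P1, P3 and P7). Each of the 12 combinations of line, age and genotype had 3 libraries. The deletion affects collecting duct cells only, and the kidney was sequenced whole, so that fewer cells of a type and less RNA per cell cannot be told apart in any result below. The labels number the libraries of a group but do not say that each came from a separate animal, so p-values measure the spread between these libraries. The deleted genes themselves are not miRNAs and were not analysed here.

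A miRNA is cut from a hairpin precursor that yields a 5p and a 3p arm, and its seed, bases 2 to 8, does most of the pairing with target mRNAs. The Sfmbt2 cluster is a rodent-specific expansion of related hairpins, which share long runs of alternating U and G on one arm and of A and C on the other. Sfmbt2 encodes a Polycomb-group protein, is imprinted and expressed from the paternal allele, and both the gene and its miRNA cluster are best known for their role in growth of the placenta. Their level in postnatal kidney is the subject of what follows.

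In the mm10 annotation the kept and dropped names together trace to 82 hairpins. Of these, 72 lie within Sfmbt2 (chromosome 2, 10370510 to 10595253, plus strand), between positions 10466663 and 10518279, and those with a stated strand lie on the strand of the gene. No exon of Sfmbt2 falls in that span of 51617 bases, so all 72 are intronic. The miR-467 hairpins recur at a regular distance: 12 of the 13 gaps between successive ones were 1909 to 2470 bases with a median of 2449.5, and the remaining gap was 4880 bases. A miR-467, a miR-466 and a miR-669 hairpin followed each other in this order 12 times. The other 10 hairpins lie elsewhere. Of the 55 members, 48 have hairpins only in Sfmbt2, 3 (miR-297a-5p, miR-466f and miR-466f-5p) have hairpins both there and elsewhere, and 4 (miR-466i-3p, miR-466i-5p, miR-466k and miR-669n) have them only elsewhere.

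**Figure D1:**
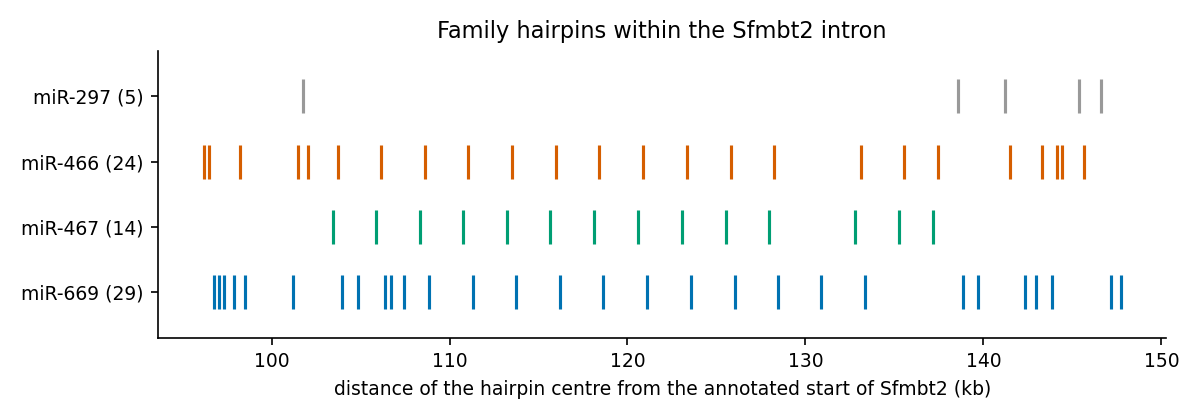
Position of the 72 hairpins in Sfmbt2. The horizontal axis is the distance of each hairpin's centre from the annotated start of the gene, in kb. Each tick is 1 hairpin, and the 4 rows are the families with their number of hairpins (5 miR-297, 24 miR-466, 14 miR-467 and 29 miR-669). The middle of the cluster repeats a trio of miR-467, miR-466 and miR-669 hairpins.

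Mature sequences were read from RefSeq (GRCm38.p6) for 3 of the 55 members, all from hairpins outside Sfmbt2, and they are shown because 1 of them, miR-669n, stood apart in the results. In each the seed, bases 2 to 8, is in capitals.
miR-466i-3p: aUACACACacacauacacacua
miR-466k: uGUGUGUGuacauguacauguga
miR-669n: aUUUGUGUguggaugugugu
miR-466i-3p lies at chr13:17747552-17747573 (plus strand), in an intron of Cdk13 on the opposite strand, and 86.4% of its bases are A or C. miR-466k lies at chr3:85467396-85467418 (plus strand), in an intron of Gm37240 on the opposite strand, and 69.6% of its bases are U or G. miR-669n lies at chr3:115979905-115979924 (plus strand), in an intron of Slc30a7 on the opposite strand, and 90.0% of its bases are U or G. None of the 3 seeds was found in another of the 649 tested miRNAs with a sequence. Only these 3 of the 55 members are among the 649, so seeds and repeats of the other members could not be compared. For comparison, the repeats UGUGUGU or ACACACA were found in 8 of these 649 (1.23%), 3 of them the members above. Among non-members, miR-574-5p (91.3% U or G) and miR-672-5p (82.6%) carry such a repeat after a seed of their own.
miR-574-5p: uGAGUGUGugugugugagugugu
miR-672-5p: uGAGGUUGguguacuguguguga

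Because the hairpins are so alike, many names share their reads. The 55 members had only 45 distinct sets of counts over the 36 libraries. In 8 cases 2 or 3 names carried exactly the same count in every library, which involved 18 names, whereas none of the 720 other miRNAs shared its counts with another. The groups were miR-297a/b/c-3p, miR-466b/c/p-3p, miR-466b/o-5p, miR-466d/n-5p, miR-467a/d-3p, miR-467a/b-5p, miR-669a/o-3p and miR-669a/p-5p. Further names were near-copies of others by their totals. miR-466e-3p had 7212 reads against 7201 for miR-466b/c/p-3p, and miR-466f had 435 against 428 for miR-466f-5p. Across families, miR-466m-5p had 197 against 196 for miR-669m-5p. The 45 sets of counts are thus not all independent. These reads cannot be assigned to 1 hairpin. Below, each distinct set of counts is called a profile and is written with all its names, and counts of members are given beside counts of profiles.

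The families were scarce in kidney. Summed over the 45 profiles, their counts came to 0.00425% to 0.0450% of the reads of a library (median 0.0148%), or 695 to 9245 reads. Near-copies such as miR-466e-3p and miR-466b/c/p-3p enter this sum separately, so reads they share count more than once. The shares of families and profiles below carry the same limit. The detection floor was set at 3 reads, which corresponded to 0.0562 to 0.391 normalised CPM (counts scaled to library size), and covers counting error only, since reads are not independent molecules. Family miR-669 held 42.4% of the reads of the profiles, miR-467 held 29.5% and miR-297 held 3.10%, and miR-466 held the rest. The first 5 profiles by reads together held 46.9%.

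The most abundant profile was miR-669a/o-3p, with 14.1 CPM in its lowest library, a median of 25.4 and 35.6 in its highest. Its names took positions 241 and 242 among the 775 miRNAs by mean level. Next came miR-467a/b-5p (8.65, 14.4 and 23.7 CPM for lowest, median and highest library), miR-669c-5p (7.90, 10.4 and 15.8), miR-467e-5p (6.16, 9.75 and 12.9) and miR-669a/p-5p (5.75, 9.38 and 13.7). The ranges of neighbours in this order overlapped throughout. At the other end, miR-466i-3p had a median of 0.152 CPM, within the range of the detection floor, and 13 of the 55 members had no read in at least 1 library. These levels are on a scale common to all 36 libraries, and they compare read counts of molecules of nearly equal length.

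**Figure D2:**
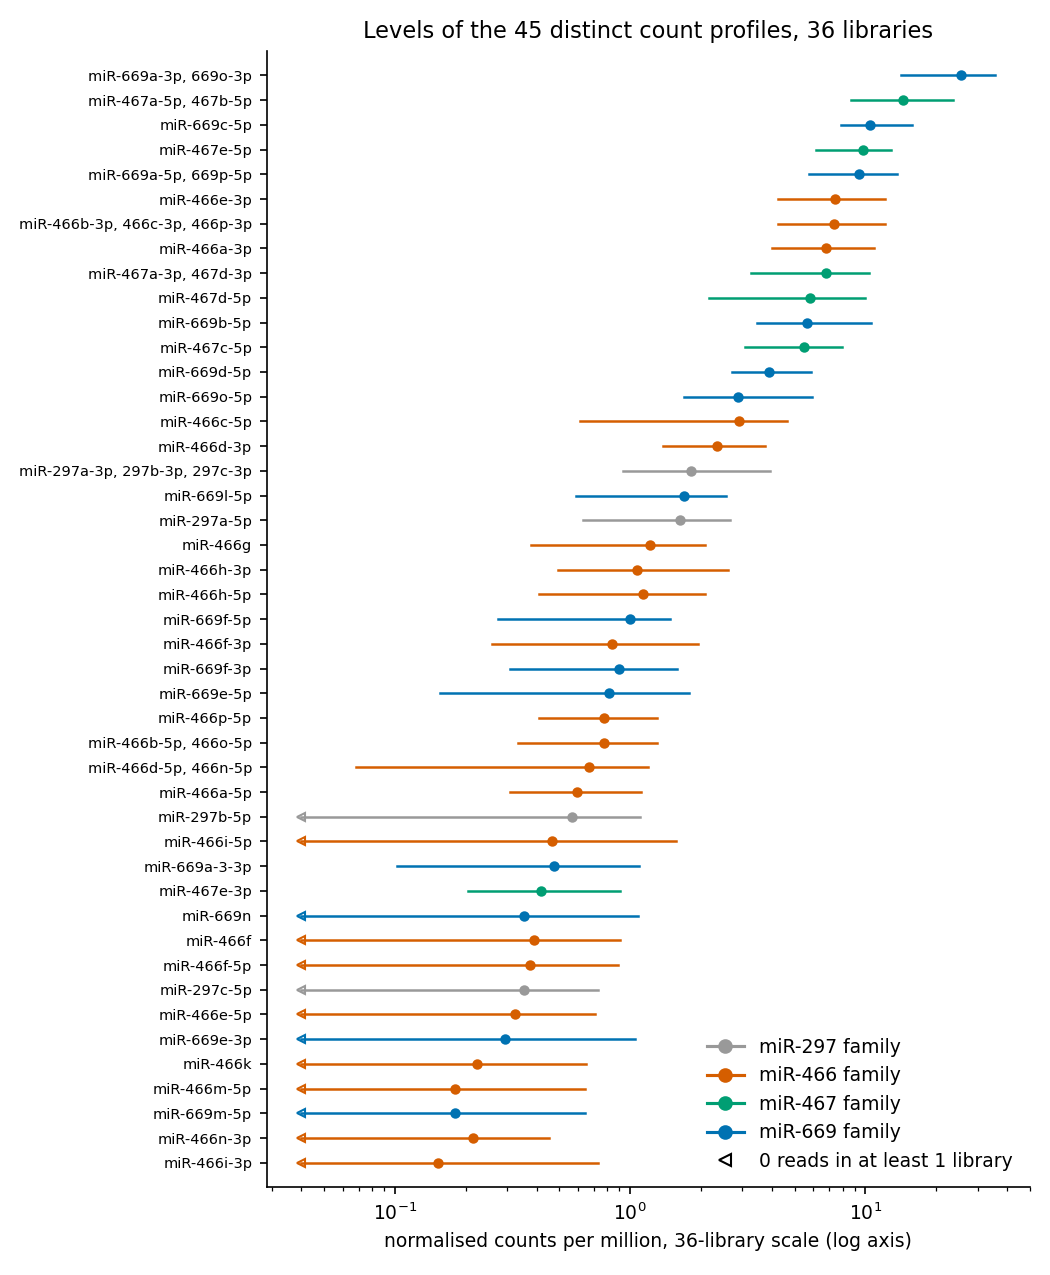
Level of each of the 45 profiles. The horizontal axis is the normalised CPM on a log scale, on the common scale of the 36 libraries. Points are medians, lines run from the lowest to the highest library, colours mark the 4 families, and an open triangle marks a profile with 0 reads in at least 1 library. Median levels ran from 0.152 CPM for miR-466i-3p to 25.4 CPM for miR-669a/o-3p.

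By name, the arm with more reads differed between the 4 families. Of the 12 miR-669 hairpin names with both arms listed, 10 had more reads on the 5p arm, and so did 4 of 5 miR-467 names. In miR-466 the 3p arm had more reads in 9 of 13 names, and in miR-297 in 3 of 3. These names are not independent. All 3 miR-297 names share 1 3p profile, and so do miR-466b, miR-466c and miR-466p. The 2 miR-669 names with more 3p reads, miR-669a and miR-669o, also share 1. The share of the 5p arm was 99.7% for miR-669c (10294 reads against 36) and 95.8% for miR-467e (9171 against 404). It was 69.4% for miR-467a and 26.7% for miR-669a, whose 3p arm, shared with miR-669o, is the most abundant profile of all. For miR-466a it was 7.88% (568 reads against 6639). Where an arm is shared between names these shares mix hairpins.

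On the common scale the summed level of the 45 profiles in the WT kidneys of both lines was lower at P7 than at P1. In Pkd1 WT it was 175 ± 29.5 CPM (SD, n = 3) at P1, 158 ± 8.18 at P3 and 109 ± 1.38 at P7. In Pkd2 WT it was 174 ± 4.11 CPM at P1, 157 ± 11.9 at P3 and 137 ± 3.52 at P7. KO kidneys followed a similar order, with 150 ± 15.0, 145 ± 8.94 and 121 ± 20.0 CPM in the Pkd1 line and 179 ± 15.3, 151 ± 6.65 and 119 ± 16.1 CPM in the Pkd2 line. In both lines the P7 libraries lay below the P1 libraries without overlap for WT, and at each age the ranges of the WT and KO libraries overlapped. Part of this depends on the scaling. As CPM of the library totals, without normalisation factors, the mean sums at P1, P3 and P7 were 132, 191 and 56.2 in Pkd1 WT and 273, 201 and 125 in Pkd2 WT, so that P7 was again the lowest, whereas P3 lay above P1 in Pkd1 WT and the lines differed at P1. On the scale made within the Pkd1 line, which the tests below use, the sums at P7 were 93.5, 86.6 and 85.7 CPM in WT and 100.2, 113 and 95.2 CPM in KO, without overlap. No test was run on this sum, in which near-copies enter separately. Because each line was kept apart, a difference between lines and anything processed with them cannot be told apart.

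**Figure D3:**
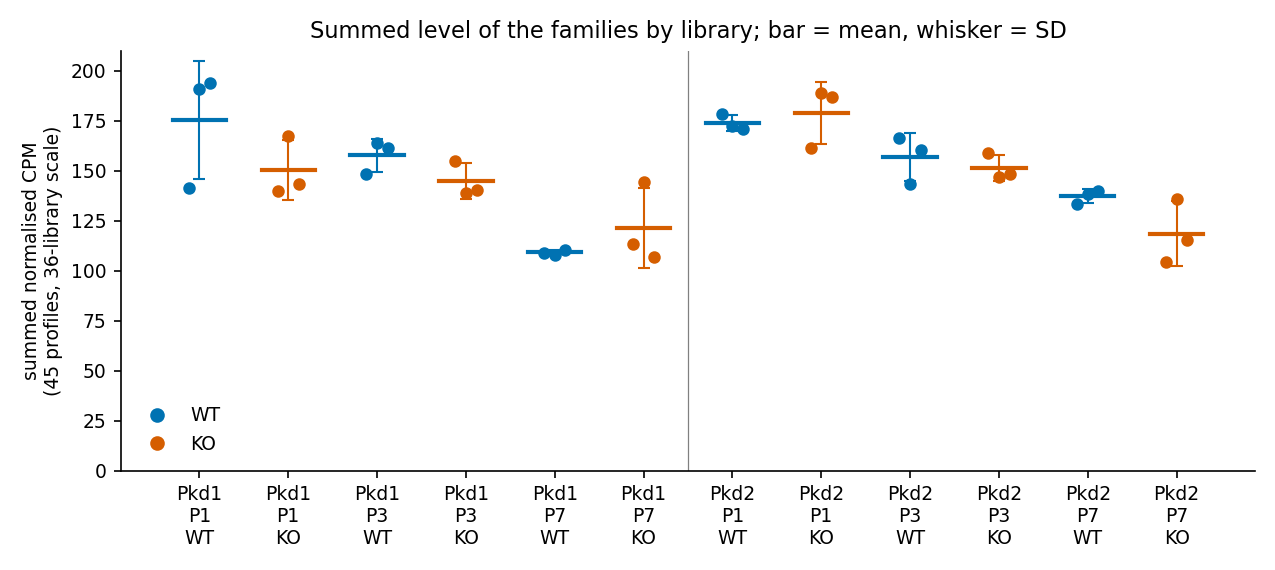
Summed level of the 45 profiles in each library. The vertical axis is the sum of normalised CPM on the common scale. Each point is 1 of 3 libraries, bars are means and whiskers are SDs, with WT in blue and KO in orange. P7 WT libraries lie below all P1 WT libraries of their line.

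The first comparison asks how the families changed with age in kidneys that kept the floxed gene, between P1 and P7 in WT. In both lines members of the families fell. In the Pkd1 line 18 of 51 members tested (11 of 41 profiles) were lower at P7 and none was higher at an adjusted p below 0.05 (edgeR quasi-likelihood test, adjusted over all miRNAs tested). Of all 706 miRNAs tested there, 21.5% were called, 11.2% lower and 10.3% higher. In the Pkd2 line 12 of 55 members (9 of 45 profiles) were lower and 1 was higher, where 28.3% of all 746 miRNAs tested were called, 16.9% lower and 11.4% higher. The P7 libraries lay below all P1 libraries for 27 members (20 profiles) and above them for 0 in the Pkd1 line, where 16.4% of all miRNAs lay below, 16.7% above and 33.1% either way. The Pkd2 counts were 28 below (22 profiles) and 1 above, where 27.7% of all lay below, 22.1% above and 49.9% either way. The median log2 fold change over the members was -0.69 in the Pkd1 line, where it was -0.03 over all miRNAs, and -0.54 in the Pkd2 line, where it was -0.06. The share of Pkd2 members called lower was thus near that of all miRNAs, and 51 of the 55 had a fold change below 0.

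The 3p arms made up most of the calls. Among Pkd1 libraries 13 of 20 3p members (7 of 14 profiles) and 5 of 28 5p members (4 of 24 profiles) were lower. Among Pkd2 libraries 10 of 21 3p members (7 of 15 profiles) and 2 of 30 5p members (2 of 26 profiles) were. By family, the lower members in the Pkd1 line were 3 of 6 miR-297, 7 of 22 miR-466, 2 of 8 miR-467 and 6 of 15 miR-669 names. By profile these were 1 of 4, 5 of 18, 1 of 6 and 4 of 13, beside 11.2% of all miRNAs called lower. For Pkd2 they were 1 of 6, 8 of 25, 0 of 8 and 3 of 16 names, or 1 of 4, 6 of 21, 0 of 6 and 2 of 14 profiles, beside 16.9% of all miRNAs. Whether arms or families differ from each other was not tested, and members that share reads are counted more than once in the numbers of names. Beside the 0 edgeR calls of miR-467 in the Pkd2 line, 1 of its members had an unadjusted p below 0.05.

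Among the miR-669 members, miR-669a/o-3p had 18.8, 22.4 and 22.1 CPM in the Pkd1 WT libraries at P1, 21.1, 21.3 and 22.9 at P3, and 15.2, 12.5 and 11.9 at P7. All P7 libraries lay below all P1 and P3 libraries. The Pkd2 values were 40.0, 39.9 and 40.5 at P1, 36.4, 29.7 and 32.6 at P3, and 28.8, 21.3 and 29.1 at P7, again without overlap. CPM are scaled within each line here and below, so they compare ages and genotypes but not lines. The log2 fold change from P1 to P7 was -0.68 ± 0.22 (SE; edgeR adjusted p = 0.0373) in the Pkd1 line and -0.61 ± 0.19 (adjusted p = 0.0274) in the Pkd2 line. On the other arm, miR-669a/p-5p had 8.06, 9.35 and 10.8 CPM at P1 and 5.42, 5.11 and 5.66 at P7 in Pkd1 WT, a log2 fold change of -0.80 ± 0.18 (edgeR adjusted p = 0.00632). This 5p profile was not called in the Pkd2 line, where its log2 fold change was -0.45 to -0.33 when 1 library was left out. The calls of miR-669a/o-3p were lost in 9 of 15 alternative settings in the Pkd1 line and in 7 of 15 in the Pkd2 line, whereas that of miR-669a/p-5p was lost in 1 of 15.

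Rarer miR-669 members had fold changes further from 0. In Pkd1 WT, miR-669e-5p had 41, 10 and 22 reads at P1 and 3, 1 and 14 at P7, which is 1.17, 0.907 and 1.40 CPM against 0.353, 0.125 and 0.672. Its log2 fold change was -1.43 ± 0.41 (edgeR adjusted p = 0.0243). The call was lost in 5 of 15 settings, and the value ran from -2.29 (without P7 WT replicate 3) to -1.10 (without P7 WT replicate 2) when 1 library was left out. miR-669l-5p had 1.74, 1.91 and 1.21 CPM at P1 and 0.825, 0.498 and 0.768 at P7, a log2 fold change of -1.19 ± 0.41 (edgeR adjusted p = 0.0481), and its call was lost in 9 of 15 settings. In Pkd2 WT, miR-669f-3p had 1.69, 1.23 and 1.33 CPM at P1 and 0.696, 0.475 and 0.992 at P7, a log2 fold change of -0.96 ± 0.30 (edgeR adjusted p = 0.0266). The groups did not overlap for any of these 3, and each of them was called in 1 line only. By contrast miR-669c-5p, among the most abundant, gave -0.51 ± 0.21 in the Pkd1 line and -0.39 ± 0.18 in the Pkd2 line and was not called in either (edgeR adjusted p = 0.0817 and 0.116).

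Among the miR-466 members miR-466b/c/p-3p, miR-466e-3p, miR-466h-3p and miR-466c-5p fell in both lines. For miR-466b/c/p-3p the Pkd1 WT libraries had 5.35, 8.44 and 9.57 CPM at P1 and 5.30, 5.11 and 4.03 at P7, so that the lowest P1 library was within 0.1 CPM of the highest P7 library. The Pkd2 WT libraries had 11.2, 10.7 and 11.0 CPM at P1, 7.94, 9.33 and 9.78 at P3, and 6.96, 7.22 and 7.80 at P7, and the P1 and P7 groups did not overlap. The log2 fold changes were -0.69 ± 0.23 (edgeR adjusted p = 0.0440, lost in 8 of 15 settings) and -0.58 ± 0.15 (adjusted p = 0.00942, lost in 3 of 15). miR-466h-3p went from 1.00, 1.09 and 1.40 CPM to 0.471, 0.498 and 0.384 in Pkd1 WT, and from 1.49, 2.37 and 2.25 to 1.08, 0.950 and 1.26 in Pkd2 WT. Its log2 fold changes were -1.39 ± 0.36 and -0.89 ± 0.28 (edgeR adjusted p = 0.0156 and 0.0274). Its 5p arm was not called in either line.

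Other miR-466 members were called in 1 line. In Pkd1 WT, miR-466f-3p fell from 24, 16 and 21 reads at P1 to 2, 3 and 6 reads at P7, at or near the detection floor of 3 reads, with a log2 fold change of -1.91 ± 0.52 (edgeR adjusted p = 0.0213). In Pkd2 WT the same member had 0.962, 2.04 and 1.28 CPM at P1 and 0.851, 0.333 and 0.947 at P7, a log2 fold change of -1.02 ± 0.41 that was not called (edgeR adjusted p = 0.0777). In Pkd2 WT, miR-466d-3p had 3.72, 3.32 and 2.92 CPM at P1 and 1.78, 1.85 and 2.57 at P7, a log2 fold change of -0.67 ± 0.23 (edgeR adjusted p = 0.0350, lost in 7 of 15 settings). Its fold change in the Pkd1 line was -0.79 ± 0.28, with an edgeR adjusted p of 0.0568.

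Among the miR-467 members, miR-467a/d-3p fell in the Pkd1 line, where it had 5.49, 5.72 and 8.23 CPM at P1, 5.74, 3.97 and 5.02 at P3 and 3.06, 2.62 and 2.93 at P7. Its log2 fold change was -1.17 ± 0.24 (edgeR adjusted p = 0.00420), and it was called in all 15 alternative settings. The Pkd2 libraries had 9.09, 10.2 and 8.45 CPM at P1 and 6.27, 6.84 and 8.29 at P7, and the profile was not called there. The opposite arm of miR-467a, miR-467a/b-5p, had 9.23, 10.1 and 13.7 CPM at P1 and 7.42, 7.97 and 9.55 at P7 in Pkd1 WT, with overlapping groups and a log2 fold change of -0.40 ± 0.23 (edgeR adjusted p = 0.214). The level of miR-467e-5p hardly moved in WT: it had 6.63, 8.89 and 10.2 CPM at P1 and 8.48, 8.10 and 8.49 at P7 in the Pkd1 line, and 12.7, 11.6 and 12.1 against 13.2, 12.4 and 11.9 in the Pkd2 line. Its log2 fold changes were -0.03 ± 0.19 and 0.04 ± 0.18, neither called. This holds with normalisation factors only. With library totals alone they were -0.65 and -0.69, where the medians over all miRNAs were -0.68 and -0.78.

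Among the miR-297 members, miR-297a/b/c-3p had 1.69, 2.54 and 1.91 CPM at P1 and 0.825, 1.37 and 0.720 at P7 in Pkd1 WT, a log2 fold change of -1.10 ± 0.31 (edgeR adjusted p = 0.0234). In Pkd2 WT this profile had 2.29, 3.26 and 2.95 CPM at P1 and 1.70, 1.81 and 2.30 at P7, and was not called. miR-297b-5p fell in the Pkd2 line, from 1.36, 1.35 and 1.33 CPM at P1 through 1.32, 1.12 and 0.799 at P3 to 0.232, 0.523 and 0.541 at P7. Its log2 fold change was -1.57 ± 0.32 (edgeR adjusted p = 0.00225), and the call held in all 15 settings. Its Pkd1 WT reads were 8, 2 and 7 at P1 and 3, 3 and 10 at P7, a log2 fold change of 0.54 ± 0.74 (edgeR adjusted p = 0.630).

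The 1 member that rose was miR-669n, 1 of the 4 with no hairpin in Sfmbt2. In Pkd2 WT it had 10, 5 and 9 reads at P1, 5, 13 and 17 at P3 and 10, 25 and 21 at P7, which is 0.332, 0.150 and 0.250 CPM, then 0.414, 0.454 and 0.543, then 0.774, 1.19 and 0.947. From P1 to P7 it rose 3.99-fold (SE 0.32 on the log2 scale, edgeR adjusted p = 0.000331), with no overlap of the groups. With library totals in place of normalisation factors the log2 fold change was 1.32 with an adjusted p of 0.0621. KO kidneys of the line had 0.369, 0.263 and 0.276 CPM at P1 and 1.03, 0.935 and 0.994 at P7. In Pkd1 WT it had 10, 0 and 6 reads at P1 and 2, 0 and 4 at P7, a log2 fold change of -0.64 ± 0.82 (edgeR adjusted p = 0.605). The difference between the lines in this change was -2.79 ± 0.79 (Pkd1 minus Pkd2) and missed the threshold (edgeR adjusted p = 0.226), except without Pkd1 P1 WT replicate 2, the library with 0 reads at P1, where the adjusted p was 0.0276. The other 3 members with hairpins only elsewhere were not called: miR-466i-3p, for example, had 5, 6 and 6 reads at P1 and 0, 0 and 2 at P7 in Pkd1 WT.

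**Figure D4:**
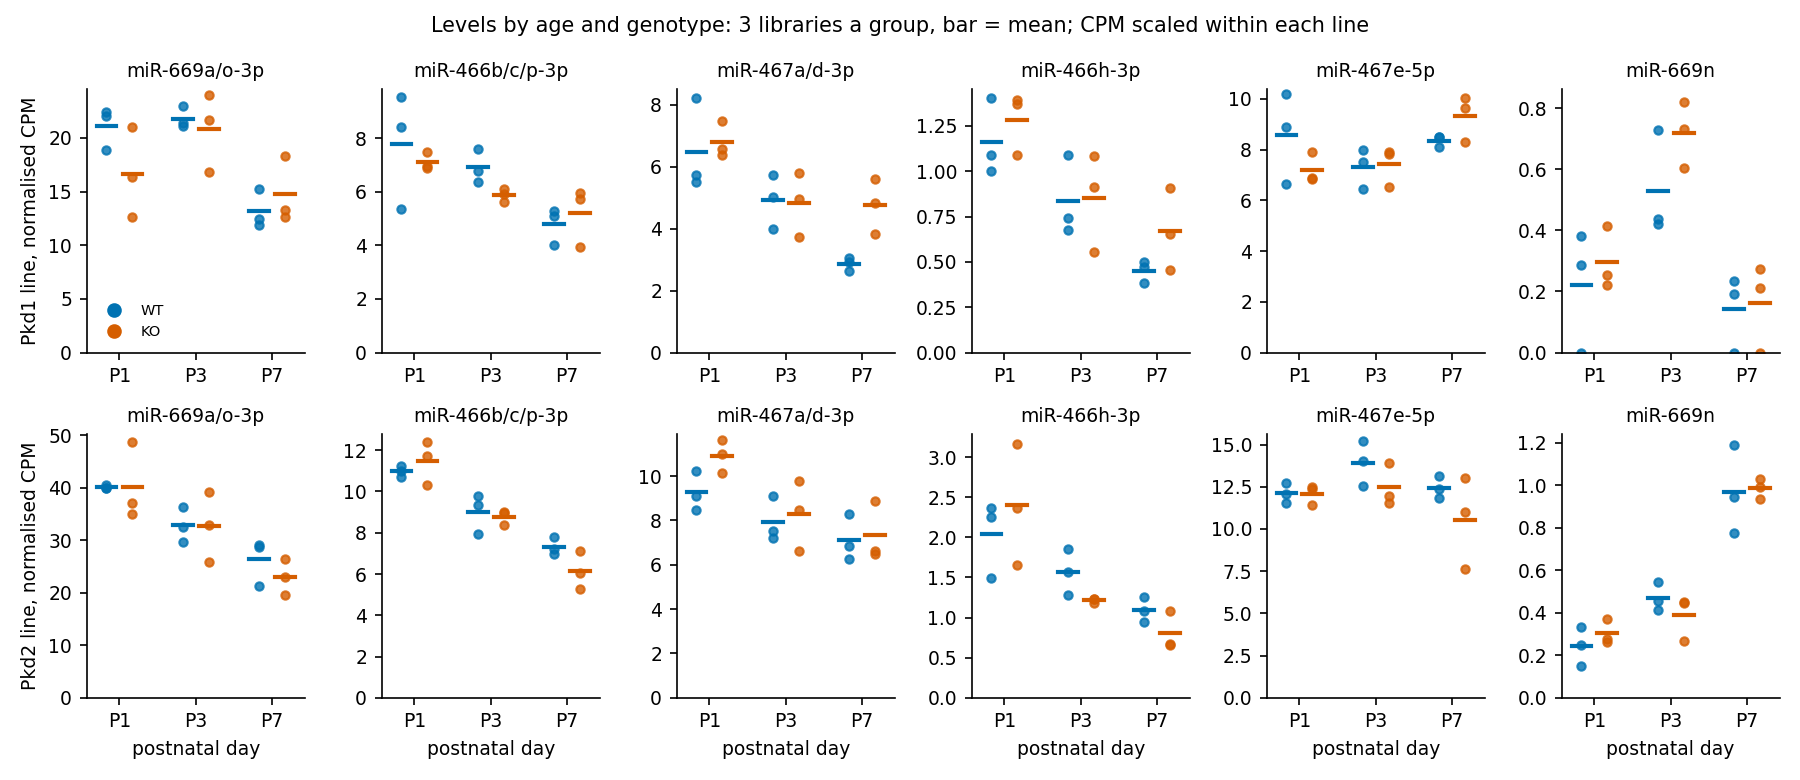
Level of 6 profiles by age, line (rows) and genotype (colours). The vertical axes are normalised CPM, scaled within each line, and start at 0. Points are the 3 libraries of a group and bars their mean. The profiles miR-669a/o-3p, miR-466b/c/p-3p and miR-466h-3p are lower at P7 than at P1 in WT of both lines, miR-467e-5p is level, and miR-669n is higher at P7 in the Pkd2 line.

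Between lines, 8 members (5 profiles) were called lower in both: miR-466b/c/p-3p, miR-466e-3p, miR-466c-5p, miR-466h-3p and miR-669a/o-3p. By name this is 44.4% of the Pkd1 list and 66.7% of the Pkd2 list, and by profile 45.5% and 55.6%. The lines share no library. Of all miRNAs tested, 11.2% were called lower in the Pkd1 line and 16.9% in the Pkd2 line. The share of all miRNAs called lower in both is not given here, so this overlap has no background. The profiles miR-466b/c/p-3p and miR-466e-3p differ by 11 reads in all and are close to 1 result. A test of the difference in the WT change between lines called 0 of 55 members at an adjusted p below 0.05 (edgeR on all 36 libraries, 8 members or 6 profiles at an unadjusted p below 0.05), against 0.258% of all 775 miRNAs called and 7.1% below the unadjusted threshold. At P3 the mean level lay between those at P1 and P7 for 8 of the 11 profiles called lower in the Pkd1 line and for 8 of the 9 in the Pkd2 line, a choice of profiles that favours such an order. Over all profiles tested it lay between them for 27 of 41 and 25 of 45.

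Libraries differed in composition. The share of reads taken by miR-10a-5p and miR-10b-5p ran from 31.4% to 81.0% across libraries, and normalisation factors from 0.393 to 2.13. With library totals alone the median log2 fold change from P1 to P7 over all miRNAs moved to -0.68 in the Pkd1 line and -0.78 in the Pkd2 line, and that over the members to -1.35 and -1.25. Relative to all miRNAs the members were lower by nearly the same amount under both scalings (-0.67 and -0.67 in the Pkd1 line, -0.49 and -0.47 in the Pkd2 line). A change of scaling shifts all miRNAs of a comparison by nearly the same amount, so this difference could hardly move. It is therefore no check on the differences in composition. With library totals alone 30 members were lower and 0 higher in the Pkd2 line, where 29.0% of all miRNAs were then called lower and 0.804% higher. The Pkd1 line had 18 lower and 0 higher under that scaling, beside 18.7% and 0.567% of all.

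The counts of calls depended on single libraries. The share of all miRNAs called without each library is not given here, so these counts cannot be set beside calls in general. For Pkd1 there were 7 calls without P1 WT replicate 2, 11 without P1 WT replicate 3 (10 lower and 1 higher), 6, 9 and 5 without P7 WT replicates 1, 2 and 3, and 19 without P1 WT replicate 1. For Pkd2 there were 8 without P1 WT replicate 2, 2 without P7 WT replicate 1, 6 without P7 WT replicate 2, and 9 or 10 without each of the others.

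Markers of other tissues moved with age too, and their part in the result was not tested. A list of 7 miRNAs taken for kidney epithelium, among them miR-192-5p, miR-200c-3p and miR-10a-5p, was present in every group. Of these, 3 of 7 were higher at P7 in Pkd1 WT and 5 of 7 in Pkd2 WT. The list thus holds miR-10a-5p, 1 of the 2 miRNAs whose share of reads differed widely between libraries. Of 5 muscle miRNAs all 5 were lower at P7 in Pkd1 WT and none in Pkd2 WT. Their summed level was 14.6 to 1175 CPM at P1 and 28.9 to 45.7 at P7 in Pkd1 WT, and 21.2 to 56.1 against 21.4 to 23.8 in Pkd2 WT. The value of 1175 belonged to Pkd1 P1 WT replicate 1, without which the members called numbered 19. The liver miRNA miR-122-5p had 11.3 to 341 CPM at P1 and 1.04 to 3.64 at P7 in Pkd2 WT, where it was called lower, and 3.99 to 33.4 and 0.624 to 7.72 in Pkd1 WT. Of 3 leukocyte miRNAs 3 were higher in Pkd1 WT and 1 in Pkd2 WT, with summed levels of 36.6 to 51.9 against 106 to 109 CPM and of 104 to 143 against 158 to 164 CPM. Of 3 erythroid miRNAs 1 and 0 were higher, and no neural or pluripotent miRNA of the lists was called in either line. Only 2 of the 5 pluripotent miRNAs were tested in the Pkd1 line and 3 in the Pkd2 line. No marker of a list was at 0 in a whole WT group except 1 or 2 of the 5 pluripotent ones, in 5 of the 6 groups.

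A list of miRNAs outside the families was made from those with the repeat and, by name, miR-574-3p. Of 5 tested in the Pkd1 line (miR-574-5p, miR-574-3p, miR-672-5p, miR-672-3p and miR-32-3p), 1 was lower at P7, miR-672-5p, with a log2 fold change of -0.59 ± 0.20 (edgeR adjusted p = 0.0464), and the median was -0.12. With miR-294-3p as a further miRNA in the Pkd2 line, 0 of 6 were called, 1 (miR-672-5p) had an unadjusted p below 0.05, and the median was -0.34. miR-574-5p gave log2 fold changes of -0.12 ± 0.17 and -0.22 ± 0.17.

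The second comparison asks whether deletion of Pkd1 or Pkd2 in the collecting duct changed the families, as KO against WT at each age. No member was called in either line at any age. For Pkd1 0 of 51 members passed the adjusted threshold at P1, P3 and P7, with 1, 0 and 8 (1, 0 and 7 profiles) at an unadjusted p below 0.05, beside 0.0%, 0.0% and 0.425% of all 706 miRNAs called. For Pkd2 0 of 55 passed at P1, P3 and P7, with 0, 1 and 5 (0, 1 and 4 profiles) at an unadjusted p below 0.05, beside 0.0%, 0.0% and 12.6% of all 746 miRNAs called. The Pkd2 comparison at P7 thus called other miRNAs at this number of libraries, 8.98% of all higher and 3.62% lower. Far fewer passed when the normalisation factors were left out, 0.938% of all higher and 0.0% lower. DESeq2 size factors gave 9.25% and 4.29%. With the normalisation factors, unadjusted p-values below 0.05 were found for 8.36%, 9.07% and 10.2% of all miRNAs in the Pkd1 line. The Pkd2 values were 5.5%, 1.47% and 29.0%. The median log2 fold change over the members was -0.12, -0.04 and 0.17 in the Pkd1 line and 0.13, -0.04 and -0.20 in the Pkd2 line, where that over all miRNAs was within 0.05 of 0. With library totals alone the members' medians were 0.34, 0.03 and 0.14 (all miRNAs 0.38, 0.12 and -0.07) and 0.37, 0.04 and -0.13 (all miRNAs 0.24, 0.04 and -0.02). Both medians moved the same way with the scaling except at P7 in the Pkd2 line. There the members' median rose from -0.20 to -0.13 while that of all miRNAs fell from 0.02 to -0.02. Relative to all miRNAs the members' medians were -0.09, -0.06 and 0.16 in the Pkd1 line and 0.10, 0.00 and -0.22 in the Pkd2 line, and with library totals alone -0.04, -0.09 and 0.20, and 0.12, 0.00 and -0.12. By the way they are formed, such differences depend little on the scaling, so their likeness is no check on it.

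At P7 the most abundant profile miR-669a/o-3p had 13.3, 18.3 and 12.6 CPM in Pkd1 KO beside the WT values of 15.2, 12.5 and 11.9 given above, a log2 fold change of 0.17 ± 0.22. In Pkd2 KO it had 19.5, 26.5 and 23.0 beside 28.8, 21.3 and 29.1 in WT, a log2 fold change of -0.20 ± 0.19. The groups overlapped in both lines. For miR-467a/b-5p the values were 0.24 ± 0.23 and -0.27 ± 0.20, for miR-467e-5p 0.16 ± 0.19 and -0.25 ± 0.18, for miR-669c-5p 0.13 ± 0.21 and 0.10 ± 0.18, and for miR-669a/p-5p 0.13 ± 0.18 and 0.11 ± 0.18.

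The members below had the lowest p-values at P7. In Pkd1 kidneys, miR-467a/d-3p had 4.82, 5.59 and 3.83 CPM in KO and 3.06, 2.62 and 2.93 in WT, so that each KO library was above each WT library, with a log2 fold change of 0.73 ± 0.24 (edgeR adjusted p = 0.213). In Pkd2 kidneys, miR-297a-5p had 1.46, 1.12 and 1.25 CPM in KO and 2.01, 2.09 and 1.98 in WT, again without overlap, with a log2 fold change of -0.65 ± 0.21 (edgeR adjusted p = 0.0571). With DESeq2 size factors its adjusted p was 0.0487. In the same comparison miR-467d-5p had 5.19, 6.36 and 5.58 CPM in KO and 8.59, 8.13 and 8.34 in WT (log2 fold change -0.55 ± 0.23, edgeR adjusted p = 0.110). miR-669d-5p had 4.19, 4.96 and 3.33 CPM in KO and 4.64, 6.32 and 6.31 in WT, with overlapping groups, a log2 fold change of -0.48 ± 0.20 and an edgeR adjusted p of 0.111. It passed with the DESeq2 test (adjusted p = 0.0317) and without Pkd2 P7 KO replicate 2 (edgeR adjusted p = 0.0464).

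At the earlier ages no member came near the threshold. The lowest p-values in Pkd1 at P1 were those of miR-669b-5p, with 3.61, 3.55 and 4.69 CPM in KO and 4.17, 7.89 and 6.31 in WT, and miR-669d-5p, with 2.37, 2.59 and 2.57 against 2.49, 4.26 and 4.08 (edgeR adjusted p = 0.571 for both). At P3 they were miR-669e-5p, with 0.495, 0.241 and 0.497 CPM in KO and 0.644, 0.699 and 0.768 in WT, and miR-466h-5p, with 0.674, 0.845 and 0.593 against 0.896, 1.44 and 0.955 (edgeR adjusted p = 0.658 for both). For Pkd2 at P1 they were miR-467e-3p and miR-669a-3-3p, higher in KO by 0.80 ± 0.41 and 0.63 ± 0.33 on the log2 scale (edgeR adjusted p = 0.908 and 0.944). At P3 they were miR-669f-5p, with 1.19, 1.30 and 1.26 CPM in KO and 0.910, 0.664 and 0.991 in WT, and miR-669m-5p, with 5, 13 and 13 reads against 2, 3 and 6. The latter is a near-copy of miR-466m-5p.

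Groups without overlap were counted as well. Among Pkd1 kidneys the KO libraries were all below the WT libraries for 11 members (8 profiles) at P3, with 0 above, where 5.24% of all miRNAs were below and 6.66% above. At P7 7 members (6 profiles) were above and 2 below, where 8.36% and 7.93% were. At P1 1 was above and 1 below (11.6% and 8.22% of all, 19.8% either way). For Pkd2, 6 (4 profiles) were above and 1 below at P1 (6.7% and 6.84%), 3 and 1 at P3 (2.55% and 2.14%), and 1 and 8 (6 profiles) at P7 (14.3% and 10.9%).

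**Figure D5:**
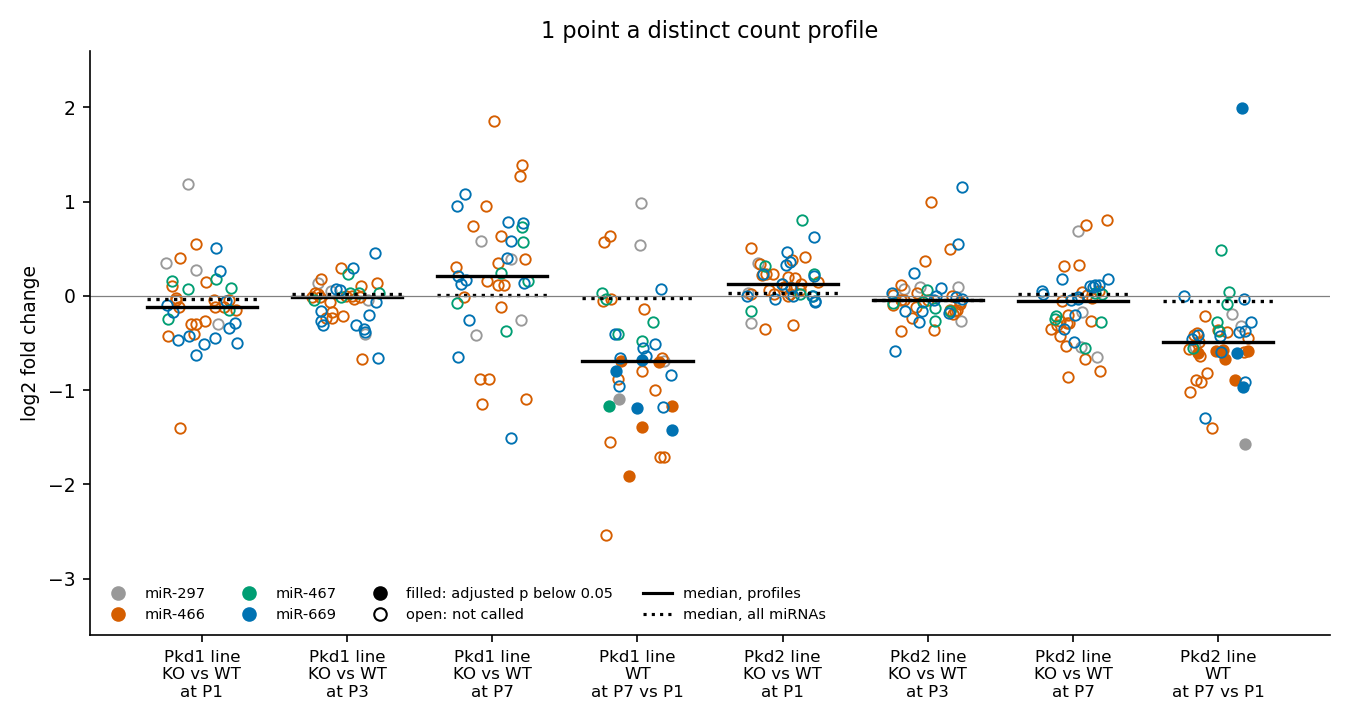
Fold changes of the profiles in 8 comparisons. The vertical axis is the log2 fold change, each point is 1 profile coloured by family, and filled points had an adjusted p below 0.05. Solid bars are the median of the profiles and dotted bars that of all miRNAs tested. Filled points appear only in the comparisons of WT at P7 with P1, 11 below 0 in the Pkd1 line and 9 below and 1 above 0 in the Pkd2 line.

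The third comparison asks whether the KO effect changed between P1 and P7 within a line. None of 51 members in the Pkd1 line and none of 55 in the Pkd2 line was called (edgeR, 6 at an unadjusted p below 0.05 in each, or 6 and 4 profiles), against 0.142% and 0.536% of all miRNAs called. Among all miRNAs 85 of 706 and 126 of 746 were below the unadjusted threshold. The lowest p-values in the Pkd1 line were those of miR-669d-5p, whose KO effect was higher at P7 than at P1 by 1.10 ± 0.35 on the log2 scale (edgeR adjusted p = 0.366), and miR-466f-3p, with 1.81 ± 0.69 (adjusted p = 0.366). The latter had 2, 24 and 7 reads in KO at P7, so that 1 of the 3 libraries carried most of them. For Pkd2 it was miR-297a/b/c-3p, with -0.89 ± 0.36 (edgeR adjusted p = 0.228).

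The fourth comparison sets the KO effects at P7 in both lines against each other. None of 55 members was called (edgeR on all 36 libraries, 12 members or 9 profiles at an unadjusted p below 0.05), against 0.387% of all 775 miRNAs called and 93 of 775 below the unadjusted threshold. The members with the lowest p were miR-669d-5p and miR-467d-5p, with a difference (Pkd1 minus Pkd2) of 1.06 ± 0.31 and 1.12 ± 0.33 on the log2 scale (edgeR adjusted p = 0.204 and 0.215). For miR-467d-5p the KO libraries of the Pkd1 line, at 3.78, 3.94 and 4.29 CPM, were all above the WT libraries at 3.18, 1.74 and 3.07, while those of the Pkd2 line were all below, as given above. For miR-669d-5p the Pkd1 KO libraries had 5.21, 3.35 and 3.74 CPM and the WT libraries 2.71, 2.24 and 3.12. Neither difference passed the threshold.

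Across the 18 libraries of a line, the 14 profiles with a mean of 3 CPM or more varied together to a moderate extent. Over their 91 pairs the median Pearson correlation of log2(CPM + 0.1) was 0.39 in the Pkd1 line and 0.57 in the Pkd2 line. Over pairs of 177 other miRNAs in the same range of mean level it was 0.01 and 0.04. The correlations are a description: the points share libraries, ages and depth, and related profiles may share reads.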

How the data were processed

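Small RNA was sequenced from 36 mouse kidney samples in 12 groups of 3. The authors trimmed adaptors, retained reads above 17 bases and obtained counts with miRDeep2 (version not given in the sources used here) against miRBase 21 and mm10. CASAVA 1.8.2 and HTSeq are also named in the submitters' processing notes. The deposited values are raw counts, 1 row per mature miRNA and hairpin. A name on several rows was represented by its highest-total row. Totals were 12569939 to 32663566 reads per library (median 24008082), and the families' few reads limit precision.

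Tests used edgeR 4.0.16 (R 4.3.3) on the counts: TMM factors, miRNAs with 10 or more counts in 3 or more of the 18 libraries of a line, 1 term per group, quasi-likelihood test, Benjamini-Hochberg adjustment over all miRNAs tested, threshold 0.05. SE is the fold change divided by the square root of F. Differences between lines used all 36 libraries in 1 fit. The method was tested on simulated data. Alternatives were DESeq2 1.42.0, its size factors, library totals, no filter, the lowest hairpin row, a replicate block, other sets of libraries and each library left out, and, chosen after seeing the data, 1 name per profile and the difference in WT change between lines. Named members are the 8 with the highest mean level, up to 4 largest rises and falls called in each comparison or else the 2 with the lowest p, their opposite arms, the scarcest member and the highest dropped names, and other members of the same profiles were named with them. The members and lists were chosen with earlier results of these data known. Correlations of same-numbered libraries ran from -0.81 to 0.66. Libraries with different numbers were not compared, so these values do not decide whether replicate numbers pair the libraries. The paper used littermates of matching age as controls, and the labels do not say which libraries shared a litter. Hairpins were placed with GENCODE M21 and RefSeq (GRCm38.p6), the latter for mmu-mir-466c-3.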

Additional observations from a re-analysis of the deposited data

How the results depend on the processing

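In WT at P7 against P1 the count of members called, 18 in the Pkd1 line and 13 in the Pkd2 line, was 7 and 2 without a filter on low counts. In the Pkd1 line it was 11 with a replicate block, 11 with 1 name per profile (chosen after seeing the data) and 3 with only the compared libraries, where 35 members were left to test; in the Pkd2 line it was 30 with library totals alone, where 29.0% of all miRNAs were called lower. Leaving out 1 library gave 5 to 19 calls in the Pkd1 line and 2 to 10 in the Pkd2 line. Apart from library totals alone, the share of all miRNAs called under these alternatives is not given here. For KO against WT at P7 in the Pkd2 line it was 1 instead of 0 with DESeq2 size factors (miR-297a-5p) and 1 with the DESeq2 test (miR-669d-5p), and 0 to 1 without 1 library. The difference in WT change between lines gave 0 to 1 calls without 1 library. All other counts of KO comparisons were 0 under each alternative run. Of the 30 counts under an alternative in the 2 WT comparisons, the ones with calls, 14 moved by over 1.5 times. The sign changed for miR-467e-5p, which was near 0: its log2 fold change in WT from P1 to P7 ran from -0.19 to 0.11 in the Pkd1 line when 1 library was left out, being above 0 without P1 WT replicate 3, and was -0.69 in the Pkd2 line with library totals alone, which is 0.10 above the median of all miRNAs under that scaling (0.09 above it otherwise). By the way it is formed, that distance from the median depends little on the scaling. Of 269 values of called members under an alternative, 81 (30.1%) lost their call, and 7 values of members not called gained one. The cause of these changes was not tested beyond the fewer members left to test. The replicate block changed no count but that in Pkd1 WT by over 1.5 times, and whether replicate numbers pair the libraries is not known. The families had 695 to 3777 reads in each WT library at P7, and what this depth limits was not tested.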
